A study of Homo sapiens with 3 samples.

Results

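The 41 genes described here encode plasma proteins that the liver secretes, including carriers, protease inhibitors, coagulation factors and complement components. They were measured in HepG2 cells, an established human hepatocellular carcinoma line, on 1-color Agilent arrays with 1 array for each of 3 conditions at 30 h. The conditions were control cells (0 μM), cells given 10 μM etoposide (the low dose) and cells given 100 μM etoposide (the high dose). Etoposide traps topoisomerase II on DNA and thereby breaks both strands, and the study chose the doses to contrast senescence with apoptosis. The labels call the control untreated, whereas the paper's heading for the arrays calls it DMSO, so its vehicle is unsettled. Members were found by gene name, and each was represented by the brightest of its probes over the 3 arrays. All 41 were among the 27274 gene names on the arrays. Of these, 38 were well above background on all 3 arrays by the call of the scanning software, compared with 15178 of all genes. The remaining 3, CP (ceruloplasmin), F9 (coagulation factor IX) and PLG (plasminogen), were above background on none of them.

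Hepatocytes make most proteins of blood plasma and release them through the secretory pathway. Fibrinogen and the coagulation factors form the clot, the serpins and related inhibitors restrain proteases, and complement marks microbes for destruction. During inflammation, interleukin-6 acting through STAT3 raises the output of the positive acute phase proteins, whereas albumin and transthyretin fall as negative acute phase proteins. In liver cells, transcription of these genes depends on factors such as HNF1, HNF4 and C/EBP. HepG2 cells retain much of this program and are widely used to study it.

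Markers of the liver line were present. All 10 liver line markers examined, among them ALB, AFP, APOA1 and HNF4A, were well above background on every array. Of the 4 markers of fibroblasts and stellate cells, COL1A1, COL3A1 and DCN were above background on no array, and PDGFRB was on 2, with scaled signals of 95.6, 64.2 and 26.7 at 0, 10 and 100 μM etoposide. The 3 bile duct markers (KRT7, KRT19 and SOX9) and the endothelial markers PECAM1 and CDH5 were above background on every array, and KDR on none, with sums of 10308, 11119 and 13069 for the bile duct list and 526, 342 and 397 for the endothelial list. The 4 leukocyte markers were all above background, with a summed scaled signal of 1620, 1964 and 3378 at 0, 10 and 100 μM etoposide. Of that sum, CD14, a receptor for bacterial lipopolysaccharide, gave 521, 1135 and 2196, and the part of the genes on these lists in the results was not tested. The 75th percentile of the arrays was 514, 536 and 432 at 0, 10 and 100 μM. Signals are given below after scaling to the control array by that percentile and, where 3 stand together, in the order control, low dose, high dose. Where 2 log2 differences stand together, they are those of the low and then the high dose from control. Since RNA came from whole cultures, a change in the share of cells that express a gene and a change in RNA per cell cannot be told apart. Each condition had a single array, so every difference describes these 3 arrays without a replicate check or a p-value.

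The start regions of members are shown first, because the fibrinogen chains differed in their response and because sites for HNF1 and STAT factors are known in genes of this kind. RefSeq (GRCh38.p14) gave a window from 250 bases before to 50 bases after the start for 33 of the 41 members. On both strands, GTTAAT, one arm of the HNF1 palindrome, was present in 10 of the 33 members (30.3%) and in 8.27% of all 27305 genes with a window. The STAT pattern TTCNNNGAA was also found in 10 of the 33 members (30.3%), compared with 9.38% of all genes. The HNF4 pattern CAAAGTCCA occurred in 2 members, AHSG and F10 (6.06%), and in 0.472% of all genes. The whole HNF1 palindrome, which contains the arm, the C/EBP pattern TTGCGCAA and the NF-kB consensus of the kappa light chain enhancer occurred in no member window and in 0.00732%, 0.172% and 0.227% of all genes. Below, the bases just upstream of the start are printed 5′ to 3′ on the strand of the gene, with matches to the HNF1 arm (GTTAAT or its reverse complement ATTAAC) or to the STAT pattern in capitals. FGA, FGB and FGG are the 3 fibrinogen chains, ITIH4 and VTN are members past 2-fold at the high dose with a STAT match, and ALB and AFP are among the 5 members with the lowest values there. AGT, another of those 5, also had a STAT match and is not printed. Other members with a match are not printed either. Among them, F10 (log2 1.25 at the high dose), C4BPB (0.26) and PROS1 (0.06) had a STAT match, and SERPINA1 (0.84) had the HNF1 arm. Since ITIH4, VTN, ALB and AFP were chosen by their response, the printed stretches cannot show a link between match and response.
FGA (chr4:154590743-154590992, minus strand): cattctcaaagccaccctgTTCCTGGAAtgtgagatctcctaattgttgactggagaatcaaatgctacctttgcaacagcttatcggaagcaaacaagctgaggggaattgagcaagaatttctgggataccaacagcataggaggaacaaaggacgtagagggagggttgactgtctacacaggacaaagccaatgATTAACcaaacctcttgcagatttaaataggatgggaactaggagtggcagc
FGB (chr4:154562850-154562979, plus strand): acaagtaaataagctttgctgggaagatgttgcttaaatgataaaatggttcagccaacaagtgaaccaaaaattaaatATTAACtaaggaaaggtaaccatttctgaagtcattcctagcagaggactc
FGG (chr4:154612657-154612786, minus strand): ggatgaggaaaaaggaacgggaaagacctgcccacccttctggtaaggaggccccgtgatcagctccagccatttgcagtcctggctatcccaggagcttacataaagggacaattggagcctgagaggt
ITIH4 (chr3:52830673-52830802, minus strand): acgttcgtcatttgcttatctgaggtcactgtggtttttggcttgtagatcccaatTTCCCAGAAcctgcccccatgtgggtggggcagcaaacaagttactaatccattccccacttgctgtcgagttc
VTN (chr17:28370308-28370437, minus strand): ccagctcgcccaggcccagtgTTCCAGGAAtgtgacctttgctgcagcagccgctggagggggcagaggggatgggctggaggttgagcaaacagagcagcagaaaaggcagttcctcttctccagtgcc
ALB (chr4:73404157-73404286, plus strand): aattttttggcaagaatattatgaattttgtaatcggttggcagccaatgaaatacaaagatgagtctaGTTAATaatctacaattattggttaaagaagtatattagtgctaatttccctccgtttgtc
AFP (chr4:73436071-73436220, plus strand): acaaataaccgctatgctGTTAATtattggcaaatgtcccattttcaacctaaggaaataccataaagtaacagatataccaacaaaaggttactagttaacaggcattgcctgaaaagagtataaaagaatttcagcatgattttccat

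In these stretches FGA had both kinds of match, FGB, ALB and AFP had the HNF1 arm, ITIH4 and VTN had the STAT pattern, and FGG had neither. A match is a run of letters and not a shown binding site. At the high dose, the median log2 difference from control was 0.33 over the 9 measured members with the HNF1 arm and 0.65 over the 22 without it. For the STAT pattern, it was 0.85 over the 9 measured members with a match and 0.45 over the 22 without. Those with a STAT match ranged from 0.04 (AGT) to 1.88 (FGA). FGA and ALB, which both hold the arm, had the highest and the lowest difference of all measured members at the high dose.

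At the high dose, plasma protein genes were mostly higher than in control cells. The log2 difference was above 0 in 35 of the 38 measured members and below 0 in 3, with a median of 0.49 and a range from -0.52 (ALB) to 1.88 (FGA). These counts depended on the scaling, and were 28 and 10 with no scaling, 27 and 11 with median scaling and 29 and 9 with spike-in scaling, when 35.9%, 33.0% and 42.0% of all genes were above 0. With the percentile scaling, over all 15178 genes above background on all arrays, 56.8% were above 0 and the median was 0.08, and the member median lay 0.42 above it. Relative to that median, 31 of the 38 members were higher, compared with 50% of all genes by construction, and 6 were more than 2-fold above it, compared with 3.88% of all genes. More than 2-fold higher were 7 members, namely FGA, ITIH3, F11, F10, VTN, TTR and ITIH4, and none was more than 2-fold lower. Over all genes measured in this comparison, 6.79% were more than 2-fold higher and 3.68% more than 2-fold lower. At 1.5-fold, 17 members were higher and 0 lower, compared with 18.5% and 9.75% of all genes. The scaling sets the position of 0, since with no scaling the median of all genes was lower by 0.25, with median scaling by 0.29 and with spike-in scaling by 0.17. All genes split the other way with no scaling, with 3.75% more than 2-fold higher and 6.34% more than 2-fold lower, and likewise with median scaling (3.47% and 6.98%) and spike-in scaling (4.44% and 5.42%). By construction, the distance of the member median from that of all genes stayed at 0.42 under those 3 scalings, which shift every gene alike. It was 0.33 with normexp background correction.

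**Figure D1:**
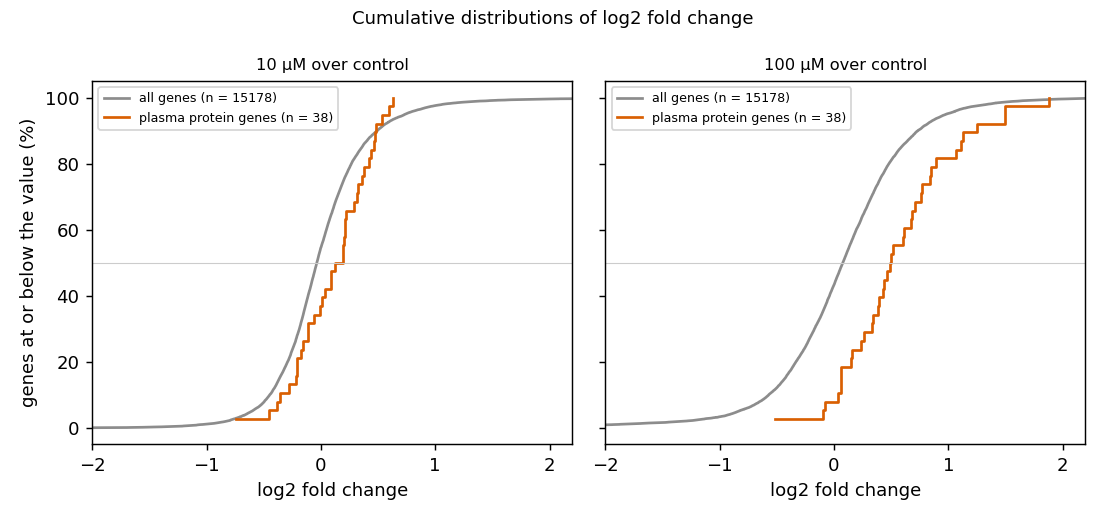
Cumulative share of genes (percent, vertical axis) at or below each log2 fold change over control (horizontal axis, from -2 to 2.2), for the low dose (left) and the high dose (right), for 38 plasma protein genes (orange) and all 15178 genes above background on all arrays (gray). The member curve crosses the 50% line at about its median, 0.16 for 10 μM and 0.49 for 100 μM, to the right of the gray curve in both panels.

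At the low dose, the members lay closer to control with the percentile scaling. How much closer depended on the scaling. The member medians at the low and high dose were 0.22 and 0.24 with no scaling, 0.14 and 0.20 with median scaling and 0.21 and 0.32 with spike-in scaling. The values that follow are those of the percentile scaling. The log2 difference was above 0 in 24 members and below 0 in 14, with a median of 0.16, and ranged from -0.74 (ALB) to 0.63 (FGA). Of all genes 45.5% were above 0, with a median of -0.03. No member was more than 2-fold higher or lower, compared with 3.38% and 1.6% of all genes. At 1.5-fold, FGA and TTR were higher and ALB was lower, against a background of 9.03% and 6.48%. Both comparisons with control use the same control array, so their values for a gene are not independent.

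Set against the high dose, the low dose gave lower values in 37 of 38 members, and F12 was the exception. Of all genes 59.4% were lower. The scaling moved this split, with 23 members lower and 15 higher with no scaling, 27 and 11 with median scaling and 29 and 9 with spike-in scaling, when 27.9%, 31.9% and 36.0% of all genes were lower. The median log2 difference of the low from the high dose was -0.38, compared with -0.09 for all genes, a distance of -0.29. More than 2-fold lower at the low dose were 4 members (ITIH4, FGA, ITIH3 and F11) and none was more than 2-fold higher, where 3.96% and 3.65% of all genes were. At 1.5-fold, 13 members were lower at the low dose and 0 higher, compared with 14.3% and 7.5% of all genes. Relative to the median of all genes, the 4 remained more than 2-fold lower, with a background of 1.95%.

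**Figure D2:**
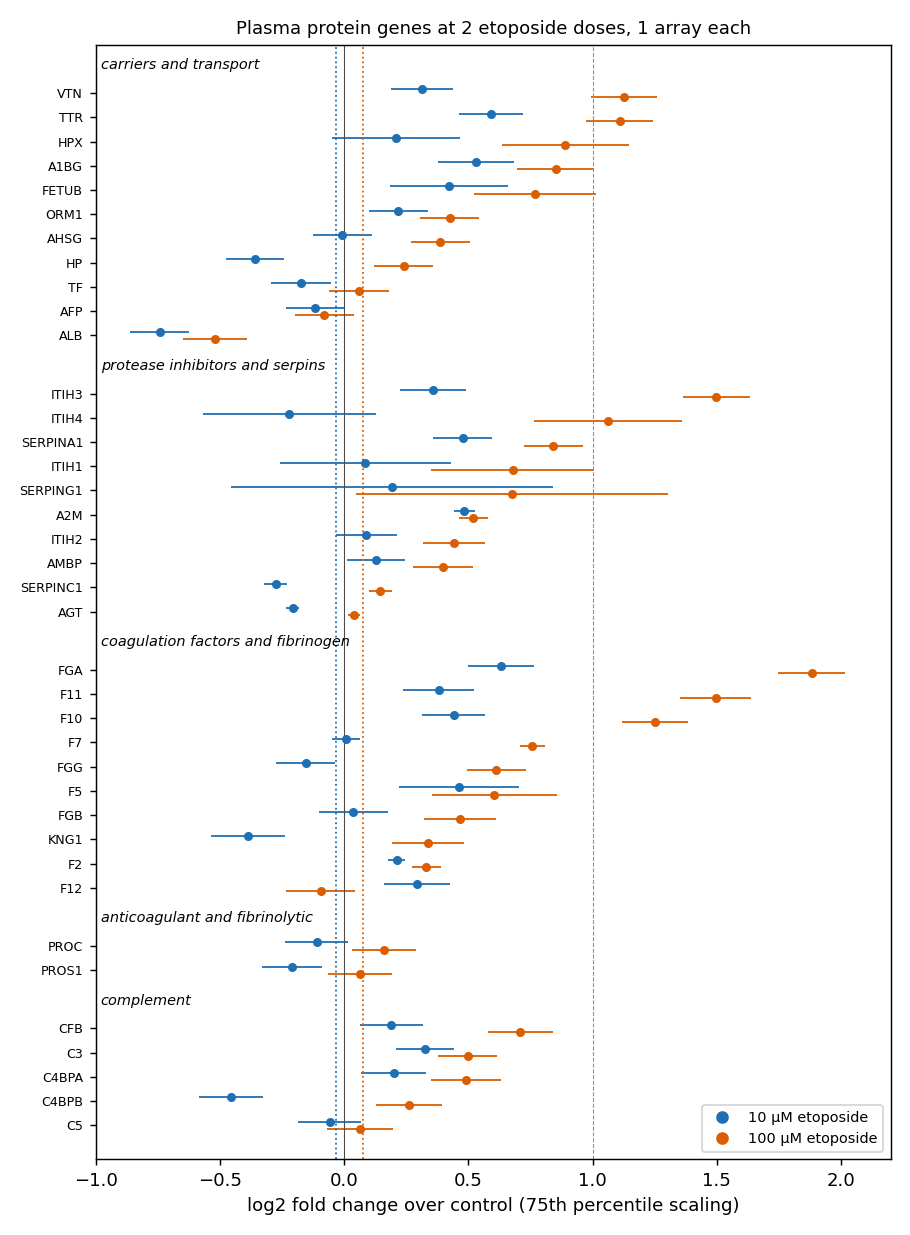
Log2 fold change over control (horizontal axis, 75th percentile scaling) of the 38 measured members grouped by role, at 10 μM (blue) and 100 μM (orange) etoposide, 1 array each. Bars are 2 SD of spot noise within arrays and not replicate error, dotted lines mark the medians of all genes (-0.03 and 0.08), and the dashed line marks a 2-fold difference. Under this scaling, the orange point lies to the right of the blue one for every member but F12.

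Fibrinogen, the substrate of the clot, is assembled from alpha, beta and gamma chains encoded by FGA, FGB and FGG, which lie side by side on chromosome 4. FGA had the greatest difference of any member. Its scaled signals were 911, 1412 and 3361, higher at each dose. That is a 1.55-fold difference at 10 μM (log2 0.63) and a 3.69-fold difference at 100 μM (log2 1.88), with a spot noise SD of 0.068 on the log2 scale for the latter. The brightest FGA probe (NM_021871) lies on chromosome 4 of hg18 from 155726698 to 155726757. The other 2 probes of the gene gave log2 differences of 1.99 and 1.47 at the high dose, and 0.87 and 0.38 at the low dose, so the 3 probes shared the direction. One of them, on the minus strand at chr4:155728239-155729433 of hg18, has its 60 bases spread over 1195 positions and so crosses an exon junction. It is shown because it reads spliced RNA.
FGA junction probe: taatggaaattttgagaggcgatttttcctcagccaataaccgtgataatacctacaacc

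The other fibrinogen chains differed less from control. FGB gave 633, 650 and 875, a log2 difference of 0.04 and then 0.47. FGG gave 31046, 27898 and 47467, which is -0.15 and 0.61. FGA, FGB and FGG were thus all highest at the high dose, and the FGA difference at that dose was larger on the log2 scale than those of FGB and FGG by more than their spot noise SDs of 0.072 and 0.060.

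**Figure D3:**
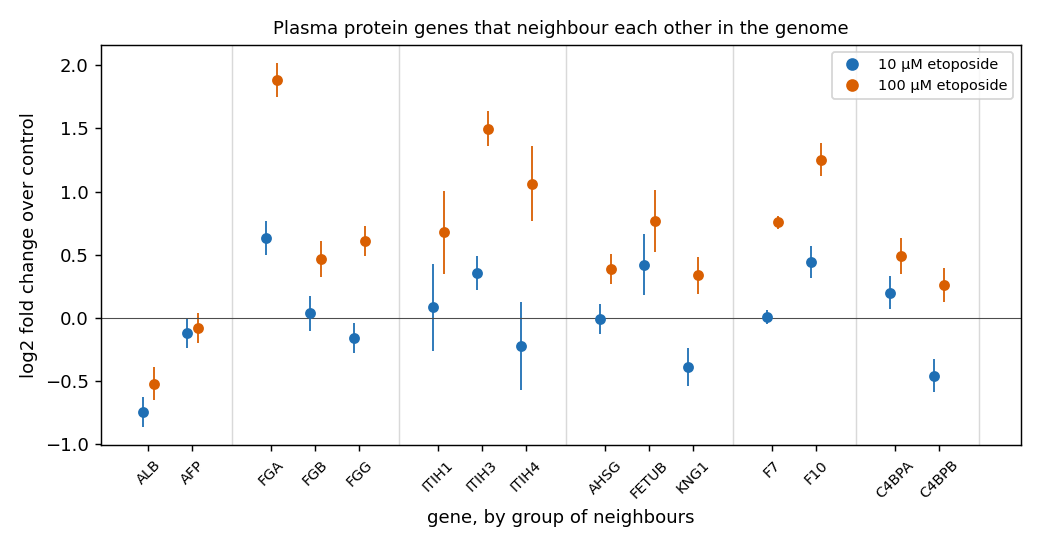
Log2 fold change over control (vertical axis) of members that neighbor each other in the genome, at 10 μM (blue) and 100 μM (orange), with bars of 2 SD of spot noise. Neighbors did not share 1 value: FGA lies at 1.88 and FGB at 0.47 at the high dose, ITIH3 at 1.5 and ITIH1 at 0.68, and F10 at 1.25 and F7 at 0.76.

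Among the coagulation factors, F11 and F10 stood with FGA. F11 (NM_000128; chromosome 4 of hg18, 187446841 to 187446900) encodes factor XI, a protease of the contact pathway that activates factor IX. Its signals were 371, 482 and 1045, giving log2 differences of 0.38 and 1.5, and its second, dimmer probe gave -0.08 and 1.04. F10 (NM_000504; chromosome 13, 112851287 to 112851346) encodes factor X, whose active form cleaves prothrombin. It gave 1785, 2423 and 4252, or 0.44 and 1.25.

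F7, the neighbor of F10 and the partner of tissue factor, was measured by a probe spotted 10 times. Its signals of 414, 416 and 700 put the low dose level with control (log2 0.01, spot noise SD 0.028) and the high dose 1.69-fold higher. F2, prothrombin, also spotted 10 times, gave 28509, 32993 and 35872, or 0.21 and 0.33. The cofactor F5 gave 0.46 and 0.61 from dim signals of 92.8, 128 and 141. With no scaling the order of the doses turned, with 0.27 and 0.08 for F2 and 0.52 and 0.36 for F5.

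KNG1, which encodes the kininogens, and F12, the factor that starts the contact pathway, did not rise from dose to dose with the percentile scaling. KNG1 was lowest at the low dose, with 423, 323 and 535 (log2 -0.39 and 0.34). F12 was the only measured member that was higher at 10 μM than at 100 μM with the percentile scaling, by 0.39 on the log2 scale, and was higher by 0.70 with no scaling, when 14 other members were higher too. It gave 601, 737 and 563, which is 0.29 and then -0.09, and the latter was within 2 spot noise SDs (0.070 each) of 0 but was -0.34 with no scaling. Over the 10 measured genes of coagulation factors and fibrinogen, the median log2 difference was 0.25 and 0.61.

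The anticoagulant genes were close to control. PROC, the protease that inactivates factors V and VIII, gave 16370, 15165 and 18303, and its log2 differences were -0.11 and 0.16. PROS1, the cofactor of PROC, gave 3299, 2850 and 3445, or -0.21 and 0.06. Both differences at the high dose were below 0 with no scaling, median scaling and spike-in scaling. The 5 measured genes whose products need vitamin K for their modification (F2, F7, F10, PROC and PROS1) ranged from 0.06 to 1.25 at the high dose, with a median of 0.33. F9 is also vitamin K dependent, and PLG belongs to fibrinolysis. Neither was well above background on any array, so they have no fold change here.

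**Figure D4:**
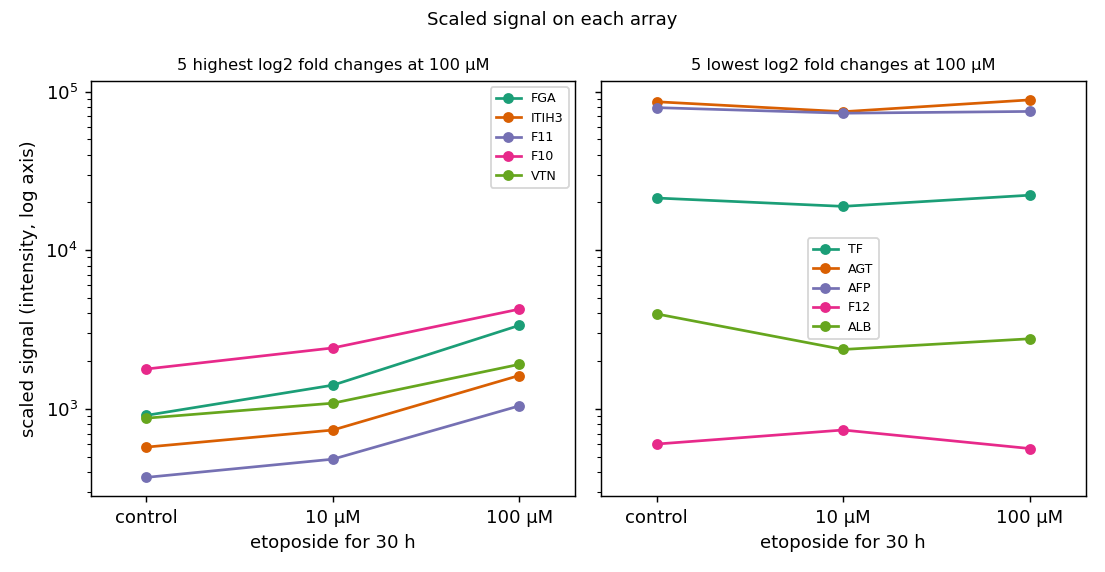
Scaled signal (array intensity, log axis) in control cells and at 10 and 100 μM etoposide for the 5 members with the highest (left) and the 5 with the lowest (right) log2 fold change at the high dose, 1 array per point. Lines on the left climb from control to the high dose, for FGA from 911 to 3361, and on the right ALB is lower at both doses than in control cells, while levels of different genes are not comparable because each probe has its own brightness.

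Protease inhibitors were higher than control in all 10 measured members at the high dose, with a median of 0.60. Of all genes 56.8% were higher there, as were 35 of all 38 measured members. With no, median or spike-in scaling 8 of the 10 were higher, when 35.9%, 33.0% and 42.0% of all genes were. ITIH3 and ITIH4 were past 2-fold. They encode heavy chains of the inter-alpha-trypsin inhibitor family, and ITIH1, ITIH3 and ITIH4 are neighbors on chromosome 3. ITIH3 (NM_002217; chromosome 3 of hg18, 52817678 to 52817737) gave 575, 736 and 1624, or 0.36 and 1.5. ITIH4 (NM_002218; 52822359 to 52822418) was dim, with 61.8, 53.0 and 129, which is -0.22 and 1.06. Its spot noise SD was 0.149 at the high dose, more than that of ITIH3 (0.068). The ITIH4 value was past 2-fold under 8 of 13 settings, but was 0.81 with no scaling and 0.77 with median scaling. Settings that change only the filter on dim probes or the rule for spots and probes hardly move a gene with 1 probe and 1 spot, such as ITIH4. ITIH1 gave 0.08 and 0.68 from similarly dim signals (57.4 to 91.9), and ITIH2, on chromosome 10, gave 0.09 and 0.44.

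SERPINA1, which encodes alpha-1-antitrypsin, the main inhibitor of neutrophil elastase, had the highest difference at 100 μM among the 14 members with a control signal over 10000. It gave 50127, 69774 and 89869, or 0.48 and 0.84. A2M, the broad protease trap alpha-2-macroglobulin, had close differences at both doses, with 1890, 2641 and 2710 (0.48 and 0.52). The 2 doses differed by -0.04 with a spot noise SD of 0.026 under the percentile scaling, but the low dose was higher by 0.27 with no scaling and by 0.23 with median scaling.

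AMBP, the precursor of bikunin, gave 0.13 and 0.40, and SERPING1, the C1 inhibitor, gave 0.19 and 0.68 near background with spot noise SDs of 0.325 and 0.315. SERPINC1 and AGT, antithrombin and angiotensinogen, differed little at the high dose. SERPINC1 gave 10339, 8540 and 11437, or log2 differences of -0.28 and 0.15. AGT gave 86175, 74628 and 88536, or -0.21 and 0.04. With no, median and spike-in scaling, both were below control at the high dose.

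Carriers and transport proteins ranged from -0.52 to 1.13 at the high dose, with a median of 0.43 over 11 measured genes. TTR (NM_000371; chromosome 18 of hg18, 27432718 to 27432777), which encodes transthyretin, a carrier of thyroid hormone and retinol-binding protein, gave 1110, 1673 and 2394. Its differences were 1.51-fold at 10 μM and 2.16-fold at 100 μM (log2 0.59 and 1.11). VTN (NM_000638; chromosome 17, 23718874 to 23718933), which encodes vitronectin, an adhesive protein that also stabilizes a plasminogen activator inhibitor, gave 875, 1087 and 1909, or 0.31 and 1.13. TTR was past 2-fold under 10 of 13 settings and VTN under 9, but several of these settings could hardly move either value. With no scaling TTR was at 0.86 and VTN at 0.88, and with median scaling at 0.82 and 0.84.

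ALB, the gene for albumin (NM_000477; chromosome 4 of hg18, 74504206 to 74504879), was lower than control at both doses. Its signals were 3966, 2370 and 2767, so control was 1.67-fold and 1.43-fold higher than the low and high dose. At the high dose ALB, AFP and F12 stayed below control in all 13 settings, several of which could hardly move their values. The range was from -0.81 to -0.45 for ALB, from -0.37 to -0.015 for AFP and from -0.38 to -0.029 for F12. AFP, its fetal counterpart and neighbor, gave 79159, 73008 and 74899, a difference of -0.12 and -0.08, the latter within 2 spot noise SDs of 0 under the percentile scaling but -0.33 with no scaling and -0.37 with median scaling.

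TF, the iron carrier transferrin, gave 21322, 18896 and 22215, and differed from control by -0.17 and 0.06, the latter turning to -0.19 with no scaling, -0.23 with median scaling and -0.11 with spike-in scaling. AHSG, fetuin-A, gave 179192, 178267 and 234213, which is -0.01 and 0.39. Its paralog FETUB, which lies beside it with KNG1 on chromosome 3, gave 0.42 and 0.77 from dim signals (99.9 to 170). HPX, the heme scavenger hemopexin, was also dim and gave 0.21 and 0.89.

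A1BG, a plasma glycoprotein of the immunoglobulin superfamily, was among the highest members at the low dose, with 301, 435 and 543 (0.53 and 0.85). ORM1, an acid glycoprotein of the acute phase, gave 0.22 and 0.43 (0.28 and 0.18 with no scaling), and HP, the hemoglobin scavenger haptoglobin, gave -0.36 and 0.24. Their near-identical paralogs ORM2 and HPR had probes of their own on the array, with 0.31 and 0.19 at the high dose. Cross-hybridization within these pairs is possible, so the gene behind each signal is uncertain. HP was below control at the high dose with no scaling (-0.011) and median scaling (-0.050).

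The 5 complement genes were all higher than control at the high dose, compared with 56.8% of all genes. They had a median of 0.49, and none was past 2-fold. With no or spike-in scaling 4 of them were higher, and with median scaling 3. C3, the component at which the activation pathways meet, gave 43470, 54485 and 61367, or 0.33 and 0.50, and its second probe gave 0.35 and 0.53. CFB, the protease of the alternative pathway, was the highest of them with 0.19 and 0.71. C5, the start of the lytic pathway, gave 1569, 1507 and 1639, and its 0.06 at the high dose was within 2 spot noise SDs of 0 and below 0 with no, median and spike-in scaling.

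C4BPA and C4BPB encode the chains of the C4b-binding protein and neighbor each other on chromosome 1. C4BPA gave 1046, 1201 and 1470 (0.20 and 0.49). C4BPB gave 1935, 1410 and 2321, or -0.46 and 0.26. Its value at the low dose was the lowest after that of ALB, and that at the high dose was below 0 with median scaling.

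Read by their known behavior in inflammation, the members listed as positive acute phase genes were all higher than control at the high dose (14 of 14 measured). Their median was 0.64, with a range from 0.04 (AGT) to 1.88 (FGA). Of all 38 measured members 35 were higher there, and 56.8% of all genes were above 0. With no scaling and with median scaling 12 of the 14 were higher, AGT and HP being lower, and with spike-in scaling 13 were. At the low dose 10 of the 14 were higher, with a median of 0.20, compared with 24 of all 38 members and 45.5% of all genes. CRP, SAA1 and SAA2, acute phase genes outside the members, were above background on no array. SERPINA3, also outside the members, was 1.69 above control at the high dose. The 4 members listed as negative acute phase genes (ALB, TTR, TF and AHSG) did not share a direction, and ranged from -0.52 to 1.11 at the high dose. AFP and F12, with -0.08 and -0.09 there, were not on that list.

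Differences were larger in members with dimmer probes. The 14 members with a control signal over 10000 had a median of 0.36 at the high dose, and none was past 2-fold, whereas the other 24 had a median of 0.69 and held all 7 that were. Across the 38 members, the log2 difference at the high dose and the log2 control signal had a Pearson r of -0.43 and a Spearman rho of -0.52. Over all 15178 genes r was -0.29 and rho was -0.33, and the control array enters both axes in each case. The 1104 genes of the whole array with a control signal over 10000 had a median of -0.09.

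**Figure D5:**
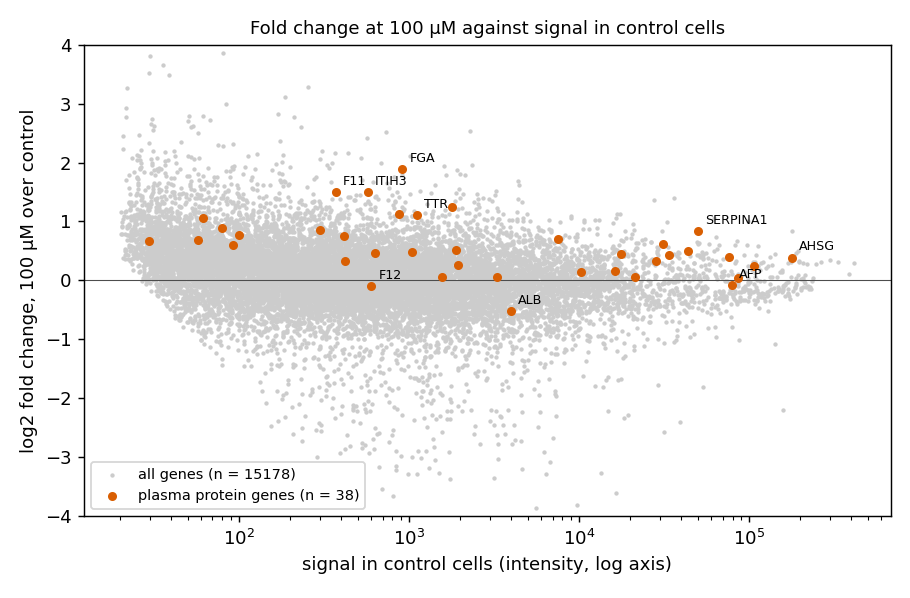
Log2 fold change at 100 μM over control (vertical axis) against the signal in control cells (array intensity, log axis) for all 15178 genes above background on all arrays (gray) and 38 plasma protein genes (orange). Orange points with control signals over 10000 lie between -0.08 (AFP) and 0.84 (SERPINA1), and the points above 1 have dimmer signals.

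Members were shorter genes than most, with a median RefSeq length of 16.03 kb compared with 26.0 kb over all genes. Gene length had a Spearman rho of -0.28 with the difference at the high dose over 38 members, compared with -0.17 over the 12786 of 15178 genes with a length. Up to 10 kb, 12 members had a median of 0.66 and all 3214 genes 0.16. Within genes of 10 to 30 kb, 17 members had a median of 0.68 and all 3750 genes of that length 0.11. Within 30 to 100 kb, the values were 0.49 over 6 members and -0.01 over 3868 genes. The 3 members over 100 kb (TF, PROS1 and C5) had a median of 0.06, and all 1954 genes of that length had -0.07. The GC content of the probe had a rho of 0.31 with the difference over the members and 0.23 over all genes, and the part of signal, length and GC content in the results was not tested.

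Other genes of the same pathways, taken from lists, gave mixed values at the high dose. Of 20 further genes of coagulation and fibrinolysis, 13 were above background on all arrays, and 6 of these were higher and 7 lower than control, with a median of -0.03. PROZ, protein Z, gave 97.3, 109 and 297 (log2 1.61), and SERPINF2, the inhibitor of plasmin, gave 379, 287 and 775 (1.03), and these were the only 2 past 2-fold. The lowest were F3, tissue factor, with -0.40 and F8, the cofactor factor VIII, with -0.25.

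Of 29 further complement genes on the array, 15 were above background throughout and all 15 were higher than control at the high dose, with a median of 0.36, compared with 56.8% of all genes. With no scaling and with median scaling 9 of the 15 were higher, and with spike-in scaling 10. MASP2, a protease of the lectin pathway, gave 121, 173 and 351 (1.54), and CFD, the protease that cleaves factor B, gave 1474, 2198 and 3101 (1.07). CD55, which speeds the decay of convertases, and CFI, which cleaves C3b, were the lowest with 0.02 and 0.09. Among 24 other plasma proteins, 17 of the 18 measured were higher, compared with 56.8% of all genes, with a median of 0.57. The count was 14 with no scaling, 13 with median scaling and 15 with spike-in scaling. Of these plasma proteins 5 were more than 2-fold higher, compared with 6.79% of all genes. SERPINA7, thyroxine-binding globulin, was 1.62 above control at 10 μM and 1.79 at 100 μM, with signals of 917, 2823 and 3163. HGFAC, the activator of hepatocyte growth factor, gave 1646, 3339 and 5662 (1.02 and 1.78). The lowest were CPN1, a subunit of carboxypeptidase N, with -0.87 and APOH, beta-2-glycoprotein I, with 0.05.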

How the data were processed

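Cy3-labeled RNA of HepG2 cells at 30 h was measured on 1 Agilent array for each of control, 10 μM and 100 μM etoposide. The authors deposited the scanner output of Agilent Feature Extraction (version 10.7.3.1, named in the submitters' processing notes), from which the processed intensity of each spot, background-subtracted but not scaled between arrays, was used here. The deposited series table held the same intensity for all 44495 spots of each array. Groups came from the labels.

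For each probe, log2 intensity was averaged over the spots not marked as outliers, and the 75th percentile of the array, with each probe counted once, was subtracted. Scaled signals are multiplied back to the control array. Values not well above background were raised to the lowest signal that was, which was 19.5, 22.7 and 21.6 before scaling, and no fold change is given for a gene dim on both arrays. Spot noise came from the 10 spots of a probe where it had them (5 members) and otherwise from the 50 nearest of 999 repeated probes. It covers 1 array and not cultures. The number of arrays limits the precision. Members and lists were chosen with earlier results of these data known. Named in full were the 5 highest and 5 lowest members at the high dose, the 3 and 3 of each other comparison, defining products, and the 2 highest and 2 lowest genes of each pathway list. Simulated data tested only the calls past 2-fold and the member median of the high dose over control. The simulated noise was that of spots within 1 array. Alternatives were other scalings, quantile normalization and normexp background correction with an offset of 50 (limma 3.58.1 in R 4.3.3), other filters, other rules for spots and probes, and thresholds of 1.5-fold and 3-fold. Python 3.11.15, pandas 2.3.3, numpy 2.4.6 and scipy 1.17.1 were used. RefSeq (GRCh38.p14) supplied gene lengths, and the files give probe positions on hg18.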

Additional observations from a re-analysis of the deposited data

How the results depend on the processing

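The count of members more than 2-fold higher at the high dose than in control cells, 7, was 4 with no scaling, 3 with median scaling and 4 with spike-in scaling (3.75%, 3.47% and 4.44% of all genes), and became 17 at 1.5-fold (18.5%) and 1 at 3-fold (1.86%). The median there, 0.49, was 0.24, 0.20 and 0.32 under these 3 scalings. For the low over the high dose, the 4 members past 2-fold became 0, 1 and 2 under the same scalings (1.72%, 1.86% and 2.04% of all genes), 13 at 1.5-fold (14.3%) and 0 at 3-fold (0.855%). The median of -0.38 became -0.068 with no scaling, -0.11 with median scaling, -0.15 with spike-in scaling, -0.45 when the percentile included every spot and -0.30 with normexp background correction. These 3 scalings shift every gene alike, by construction. For the low dose over control, the 0 members past 2-fold in either direction became 2 higher and 1 lower at 1.5-fold (9.03% and 6.48%). Of 1368 values of single members under the alternatives, 974 moved by less than their spot noise and 394 by more. The 974 include values that could not move, so they do not measure stability. Other filters on dim probes and the deposited series intensities leave every measured member as it was, by construction. No paired analysis was possible because there was 1 array for every condition, and for that reason no array could be left out. Dim members, such as SERPING1 and ITIH4, had the widest spot noise, and CP, F9 and PLG could not be compared.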

Other observations

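Of 11 genes of acute phase signaling, all above background on every array, the highest at the high dose were STAT3, the factor that relays interleukin-6 signals, with signals of 206, 355 and 413 at 0, 10 and 100 μM etoposide (log2 differences of 0.78 and 1.0 from control), and IL6R, the receptor subunit, with 0.24 and 0.48. The lowest were CEBPB with -0.16 and -0.70 and NFKB1 with -0.30 and -0.56. The median of the 11 genes at the high dose was 0.19, compared with 0.08 for all genes. At the low dose it was -0.16, compared with -0.03, and 4 genes were higher and 7 lower than control. IL6ST was the lowest of the 11 at the low dose, with 2261, 1075 and 2492 (-1.07 and 0.14). It was chosen after its values were seen.

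The 12 regulators of liver genes had a median of -0.19 at 10 μM and 0.07 at 100 μM. NR1H4, the bile acid receptor, gave 1217, 525 and 1124, so it was lowest at the low dose (-1.21) and near control at the high dose (-0.11). ONECUT1, a liver transcription factor, was dim and highest at the high dose, with 34.6, 41.3 and 92.1 (0.25 and 1.41). FOXA3, a forkhead factor of the liver, was the next highest at the high dose with 0.50, and the lowest there were CEBPB with -0.70 and NR5A2, a nuclear receptor, with -0.44. NR1H4 was chosen after its values were seen.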
